A study of Mus musculus with 2 samples.

Results

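The Hox genes of paralog group 11 in the mouse, Hoxa11, Hoxc11 and Hoxd11, were examined for islands of the histone deacetylases Hdac1 and Hdac2 in nephron progenitor cells. The 3 genes were chosen by name, out of 21887 protein-coding genes of the annotation, as the paralogs of this group, and an island was counted at a gene when it shared at least 1 bp with the gene or with the 1 kb beyond either end. Nephron progenitors, from which the nephron epithelium forms in the fetal kidney, were taken from wild-type embryos at E16.5 and grown in culture before crosslinking. The strain and the number of embryos behind a library, and any pooling of them, were not stated in the labels. Chromatin was immunoprecipitated with an antibody against Hdac1 (0.5 µg) in 1 library and with an antibody against Hdac2 (1 µg) in the other, so antibody and amount cannot be told apart. With 1 library per antibody there is no replicate check and no test between them, and the read depth is unknown.

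Hox genes stand in 4 clusters and encode homeodomain transcription factors that give cells their position along the body axis. The genes of a group are copies of 1 ancestral gene, and those of group 11 lie near the end of the clusters that acts in the posterior body. In the mouse they act redundantly: kidneys are small when Hoxa11 and Hoxd11 are both lost and fail to form when Hoxc11 is lost with them. Their proteins act with the cofactor Eya1 and the transcription factor Pax2 on Six2, which keeps progenitors undifferentiated, and on Gdnf, the signal that makes the ureteric bud branch. Hdac1 and Hdac2 remove acetyl groups from histones and work as the enzymes of corepressor complexes such as NuRD, Sin3 and CoREST. An island is a region of mm10 that the authors' peak caller reported as enriched over background. It shows neither a level of binding nor whether the gene was transcribed.

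The RefSeq promoter table (GRCm38.p6, the assembly of mm10) matched 2 of the 3 genes, Hoxa11 with 1 start and Hoxd11 with 2. The 250 bases before each start are shown because each lies wholly inside an Hdac1 and an Hdac2 island, and the Hdac2 islands at the 2 Hoxd11 starts are different ones. Capitals mark the dinucleotide CG, the site of cytosine methylation in mammals. The windows are chr6:52245811-52246060 (minus strand) for Hoxa11, chr2:74679308-74679557 (plus strand) for the first Hoxd11 start and chr2:74682073-74682322 (plus strand) for the second.
Hoxa11: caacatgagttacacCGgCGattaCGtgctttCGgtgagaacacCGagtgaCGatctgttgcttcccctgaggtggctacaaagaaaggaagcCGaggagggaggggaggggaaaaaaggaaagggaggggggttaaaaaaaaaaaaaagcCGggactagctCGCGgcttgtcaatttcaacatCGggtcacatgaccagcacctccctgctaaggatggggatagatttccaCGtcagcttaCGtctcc
Hoxd11, first start: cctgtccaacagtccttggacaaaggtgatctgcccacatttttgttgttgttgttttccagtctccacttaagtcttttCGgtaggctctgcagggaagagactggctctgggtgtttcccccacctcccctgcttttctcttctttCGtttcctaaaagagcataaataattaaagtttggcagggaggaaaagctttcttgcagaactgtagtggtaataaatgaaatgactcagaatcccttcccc
Hoxd11, second start: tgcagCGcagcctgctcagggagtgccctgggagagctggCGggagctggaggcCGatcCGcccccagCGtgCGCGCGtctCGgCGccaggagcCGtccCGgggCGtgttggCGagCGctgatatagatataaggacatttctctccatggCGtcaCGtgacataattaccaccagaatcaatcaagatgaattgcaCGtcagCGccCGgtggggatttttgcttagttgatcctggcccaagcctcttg

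The windows differed in CG content. The Hoxa11 window held 13 CG, a number reached or passed in 31.5% of the 32851 promoter windows of the table, where the median was 6. The first Hoxd11 window held 2 CG, reached or passed in 81.2%, and the second held 20, reached or passed in 17.9%. The letters TTTATGG and TTTACGA, forms of the site bound by Hox proteins of the posterior groups, were searched on both strands. None of the 3 windows held either one, and 2.43% and 0.478% of all windows did.

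At Hoxa11 the Hdac1 island took in the whole gene, while Hdac2 lay over both ends and left the middle free. The gene spans chr6:52242105-52245810 on the minus strand. The Hdac1 island (chr6:52202601-52250000, 47.4 kb) covered 100% of the gene with 1 kb either side, and Hdac2 islands covered 72.0% of the same bases, or 31.7% with the 50% of the Hdac2 list that had the lowest values. The Hdac2 island over the start (chr6:52245001-52249600, 4.6 kb) had a value of 2.94e-12, and the start lay 809 bp from its nearer edge. That island also covered 96.3% of Hoxa11os, an antisense RNA gene whose span shares 568 bp with Hoxa11. The other Hdac2 island (chr6:52238601-52243400, 4.8 kb, 4.19e-07) ran over the far end of Hoxa11 and on into Hoxa10. Between them 1600 bp, all inside the gene, carried Hdac1 without Hdac2. Such values are the authors' own, either p-values or q-values, as the sources used here do not say which, and the list's highest is 0.0980.

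At Hoxc11 the Hdac2 island was of middling width for its list and among the weaker by value. The gene spans chr15:102954526-102956701. Its Hdac1 island (chr15:102952001-103016000, 64.0 kb) covered 100% of the gene and 1 kb either side, against 64.7% for Hdac2. The Hdac2 island over the gene (chr15:102953801-102956400, 2.6 kb) took in all but 301 bp of it. Its value of 1.88e-05 put it at percentile 83.8 of the 20307 Hdac2 islands, where low percentiles are the strongest. A second Hdac2 island (chr15:102957601-102962000, 4.4 kb, 1.30e-10) lay outside the gene and reached 101 bp of its 1 kb flank. When the Hdac2 list was reduced to the 50% with the lowest values, the island over the gene was gone, and those 101 bp, 2.42% of the span, were all that remained of Hdac2.

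Hoxd11 had the strongest Hdac2 islands of the 3 genes. The gene spans chr2:74679558-74687016 on the plus strand and shares 2744 bp with the annotated span of Hoxd10, so that islands there belong to both. Its Hdac1 island (chr2:74674801-74717000, 42.2 kb) again covered 100% of the gene and 1 kb either side, and Hdac2 islands covered 91.5%. The larger Hdac2 island (chr2:74680801-74694800, 14.0 kb, 1.47e-49) was number 100 of its list by value and number 79 by width. It held the second annotated start, 1522 bp from its nearer edge. The smaller one (chr2:74674201-74680000, 5.8 kb, 2.71e-22, number 651 by value) lay over Hoxd12 and ended 442 bp past the first start. The 800 bp between them lay inside Hoxd11 and between its 2 starts. That is the smallest gap between neighbouring islands in the Hdac2 list, a size shared by 340 gaps (1.68%).

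The 3 genes thus shared an arrangement: 1 Hdac1 island over the whole gene and 2 Hdac2 islands with a break of 800 to 1600 bp that lay wholly or partly in the gene. It is not particular to group 11. In the same 3 Hdac1 islands, Hoxa6, Hoxa9, Hoxa10, Hoxc6 and Hoxd10 had it too, with breaks of 1200, 800, 800, 1600 and 800 bp. Outside those islands, Hoxa2, Hoxb5, Hoxb7 and Hoxb9 also had full Hdac1 cover and 2 Hdac2 islands. There Hdac2 covered 68.3, 69.6, 87.8 and 89.0% of the span. Others, such as Hoxa7 and Hoxd9, lay in 1 Hdac2 island. All 3 group 11 genes had Hdac1, as did 66.3% of all protein-coding genes, and all 3 had Hdac2, as did 39.4%. Both together were found at 37.4%. These counts are therefore common among genes. Full cover was not: 3 of 3 were wholly inside Hdac1 islands with their 1 kb flanks, against 0.676% of all genes and 1.74% of the 3909 genes between 2.176 and 7.459 kb long, the range of the 3 members. Among the genes in this length range 57.1% had an Hdac1 island and 29.1% an Hdac2 island. None of the 3 was wholly inside Hdac2 islands, as 0.439% of all genes were. At least 50% of the span lay in Hdac1 islands at 3 of 3, against 4.67% of genes, and in Hdac2 islands at 3 of 3, against 2.33%, and 2 or more Hdac2 islands lay at 3 of 3, against 9.02%. With the Hdac2 list reduced to its upper 50%, Hoxd11 alone kept either call, against 1.41% of genes with 50% cover and 3.79% with 2 or more islands, and on the gene without flanks Hoxc11 had 1 Hdac2 island. The median covered share over all genes was 4.40% for Hdac1 and 0 for Hdac2. Full Hdac1 cover depends on the window. With 5 kb in place of 1 kb beyond each end, Hdac1 covered 94.1% (Hoxa11), 79.7% (Hoxc11) and 98.6% (Hoxd11) of the span. The share of all genes with full cover was not recomputed in that window. Since the members lie on cluster islands shared with other Hox genes, they are not independent cases.

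**Figure D1:**
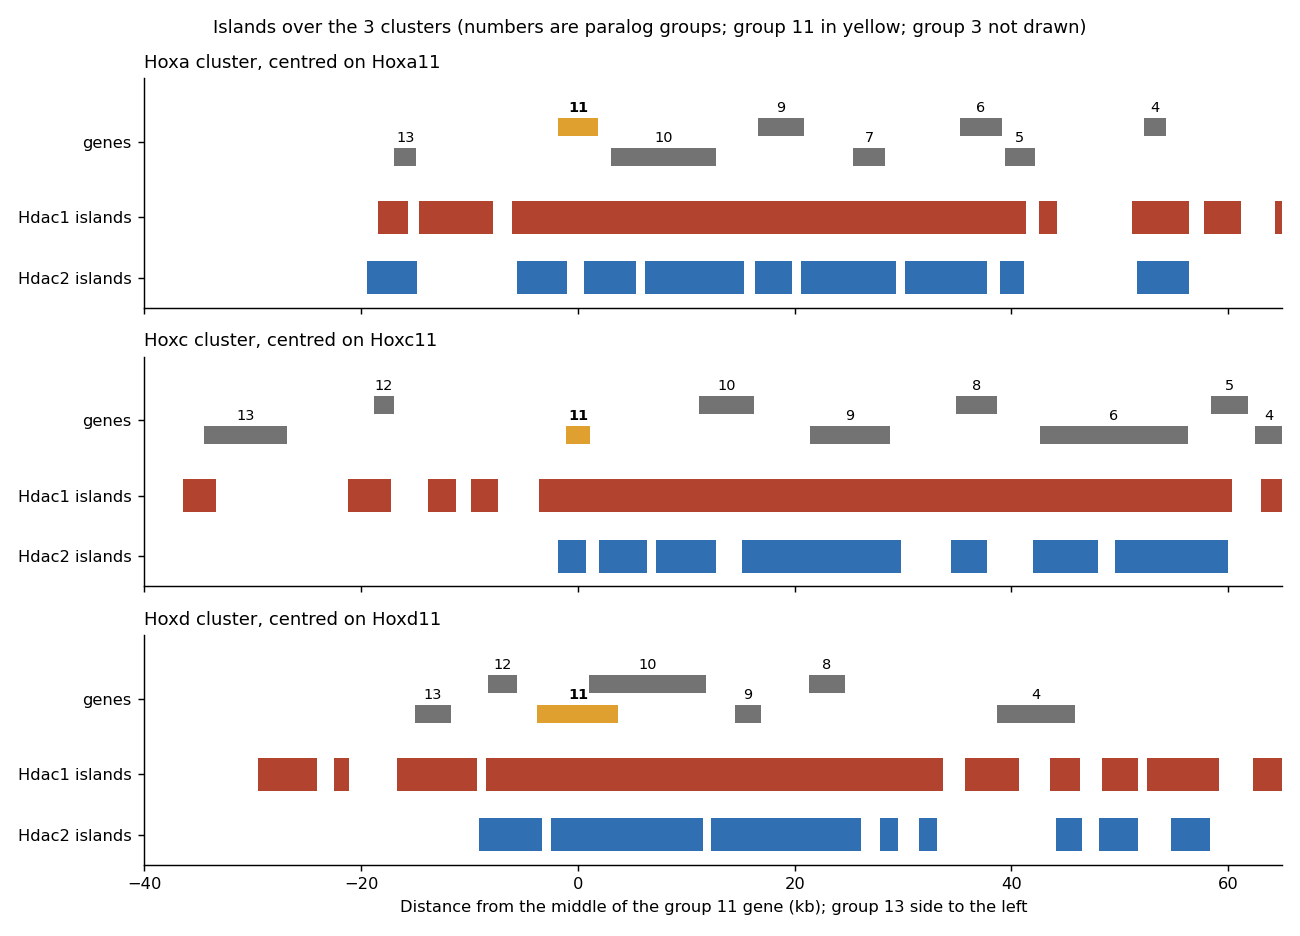
Islands of Hdac1 (red) and Hdac2 (blue) over the Hoxa, Hoxc and Hoxd clusters, by distance in kb from the middle of the group 11 gene (yellow). The group 13 side is to the left and the other Hox genes are in grey, with those of group 3 not drawn. In each panel 1 long Hdac1 island (47.4, 64.0 and 42.2 kb) ends a few kb to the left of the group 11 gene, and a row of 7, 7 and 5 Hdac2 islands lies along it.

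On the group 13 side, Hoxa11 and Hoxc11 were the last Hox genes in their long Hdac1 islands, and Hoxd11 was next to last. The distance from the gene to that edge was 4.19 kb for Hoxa11, 2.525 kb for Hoxc11 and 4.757 kb for Hoxd11, with Hoxd12 in between. The middle of the gene lay 12.7%, 5.64% and 20.1% of the way along the island from this edge. Hdac2 stopped close to the same place: its outermost island ended 400 bp inside the Hdac1 edge at Hoxa11, 1800 bp inside at Hoxc11 and 600 bp beyond it at Hoxd11. At the other end of the Hdac1 islands, toward the anterior genes, the last Hdac2 island ended 200 bp inside the edge in Hoxa, 400 bp inside in Hoxc and 600 bp inside in Hoxd. Widths in both lists are multiples of 200 bp, and so are these offsets, so the smaller of them are a few such steps.

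Beyond that edge Hdac1 went on in shorter islands and Hdac2 did not, except in Hoxa. The next Hdac1 island lay 1.8 kb away in Hoxa (6.8 kb wide, 1.22e-11), 3.8 kb away in Hoxc (2.4 kb, 0.000146) and 0.8 kb away in Hoxd (7.4 kb, 1.34e-24). Measured from the same edge, the next separate Hdac2 island lay 8.8 kb away in Hoxa, at Hoxa13, but 203.8 kb away in Hoxc and 230.6 kb away in Hoxd. Hdac1 and Hdac2 islands covered 75.2% and 76.5% of Hoxa13 with 1 kb either side. For Hoxd13, a gene of digit and genital development, the shares were 100% and 0%. They were 68.0% and 0% for Hoxc12, and 21.4% and 0% for Hoxc13, known for its part in hair formation. Between Hoxc12 and Hoxc11 lies Hotair, a long non-coding RNA gene whose human RNA binds chromatin-modifying complexes, and it had 2 Hdac1 islands over 64.0% of its length and no Hdac2 island.

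Inside the 3 long Hdac1 islands Hdac2 came in many pieces. The Hoxa island held 7 Hdac2 islands, which covered 85.7% of it, and the Hoxc island held 7, which covered 73.4%. The Hoxd island was touched by 5 Hdac2 islands, 4 of them wholly inside, and the 5 together covered 85.8%. The 18 that lay wholly inside were between 1.6 and 14.6 kb wide with a median of 5.2 kb, against a median of 2.8 kb over the whole Hdac2 list. Of the 18, 14 were wider than that list's median and 14 had a lower value than its median of 1.96e-08. Lying wholly inside an Hdac1 island was not rare for an Hdac2 island, being true of 27.2% of the list.

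The breaks between these pieces were mostly short. Of 16 breaks 6 measured 800 bp, the least that the lists hold, 7 were 1 kb or less and 14 were 3 kb or less. The widest, of 4600 and 4200 bp, lay on either side of the Hdac2 island at Hoxc8, and none in Hoxa passed 1600 bp or in Hoxd 2000 bp. Those at Hoxa11, Hoxc11 and Hoxd11 themselves measured 1600, 1200 and 800 bp. In Hoxa, 4 of the 6 breaks were 1 kb or less, and in Hoxc 1 of 6. Joining the islands of each list across breaks of up to 1 kb left 3 pieces in the Hoxa island, 6 in Hoxc and 3 in Hoxd. Joining up to 3 kb left 1 in Hoxa, 4 in Hoxc and 2 in Hoxd. Joining also lengthens Hdac1 islands, in Hoxd already at 1 kb, as the next Hdac1 island lay 0.8 kb away.

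By value, the Hdac2 islands at Hoxa11 and Hoxc11 were not the strongest of their clusters. In the Hoxa island, 3 of the other Hdac2 islands had lower values than both at Hoxa11, led by the one of 3.4 kb at Hoxa9 (4.90e-26), and 1 had a higher value. In the Hoxc island, 4 had lower values than both at Hoxc11, led by the one of 14.6 kb over Hoxc10 and Hoxc9 (3.34e-24), and the island over Hoxc11 was the weakest of the 7. In the Hoxd island, the one over Hoxd8 and Hoxd9 (13.8 kb, 2.25e-73) was the only one stronger than the larger island at Hoxd11. Ranked within the Hdac2 list, the 2 islands at Hoxa11 were at percentiles 65.2 and 20.1, those at Hoxc11 at 83.8 and 29.8, and those at Hoxd11 at 3.21 and 0.492. The Hdac1 islands could not be ranked by value, as they were among 82 listed at 0; by width they were number 12 (Hoxa), 6 (Hoxc) and 13 (Hoxd) of 30182.

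**Figure D2:**
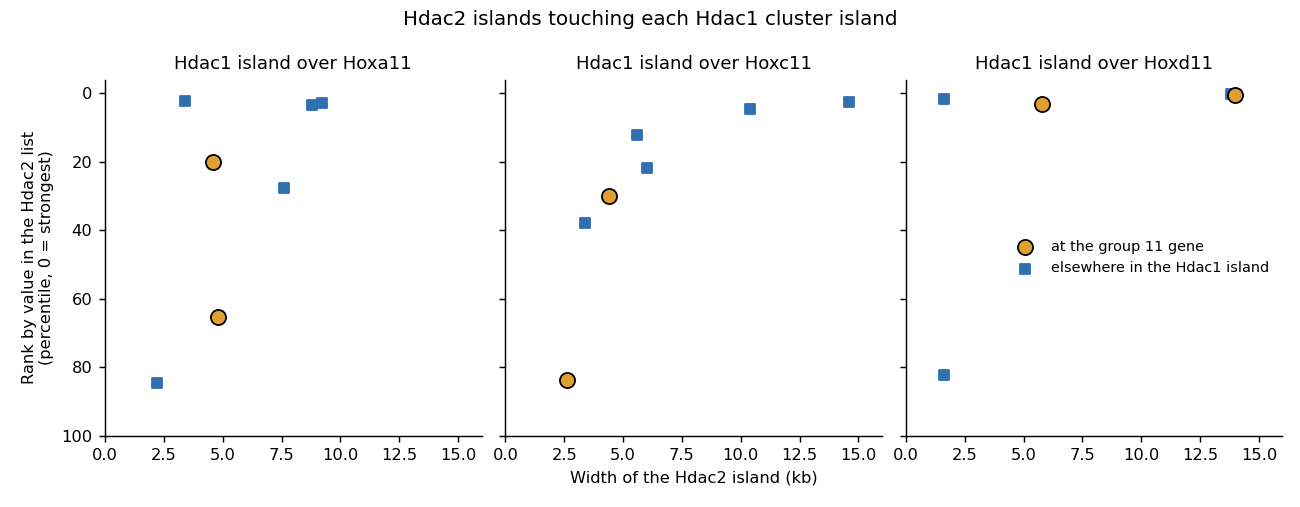
Hdac2 islands that touch the Hdac1 island over Hoxa11, Hoxc11 or Hoxd11: width in kb (x axis) against percentile by value in the Hdac2 list (y axis, strongest at the top), with those at the group 11 gene in yellow and the rest in blue. The yellow points lie at percentiles 20.1 and 65.2 for Hoxa11, 29.8 and 83.8 for Hoxc11, and 0.492 and 3.21 for Hoxd11.

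Beside the other 36 Hox genes, the group 11 genes were at the top for Hdac1 and in the middle for Hdac2. Full Hdac1 cover was found at 3 of 3 and at 22 of the other 36, with the other 14 lower. For Hdac2, Hoxd11 (91.5%) had 11 Hox genes above it and 27 below, Hoxa11 (72.0%) had 20 above and 18 below, and Hoxc11 (64.7%) had 24 above and 14 below. The median Hdac2 share was 72.0% over group 11 and 72.3% over the other Hox genes. With 1 library, the order of the 3 members has no spread to be read against.

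Along the body axis order the share of Hdac2 differed on the sides of group 11. The 6 genes of groups 9 and 10 in the Hoxa, Hoxc and Hoxd clusters, which act in limbs, vertebrae and the reproductive tract, had Hdac2 cover of 66.2 to 100% with a median of 93.5%. All 6 were wholly inside Hdac1 islands. The 5 genes of groups 12 and 13 in these clusters had Hdac1 cover of 21.4 to 100% and Hdac2 at 2 of 5, Hoxd12 (96.0%) and Hoxa13, with a median Hdac2 share of 0. Neighbouring genes share islands, and these counts describe the 2 libraries.

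**Figure D3:**
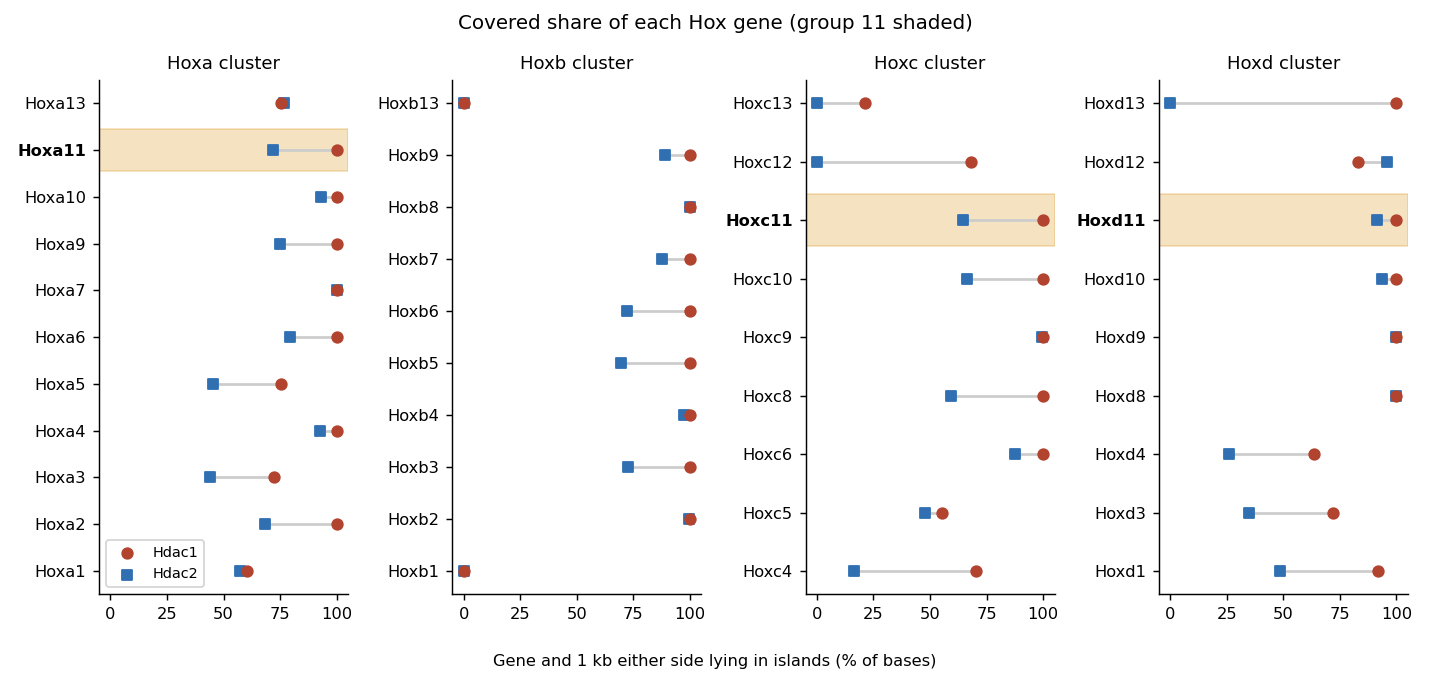
Share of each Hox gene with 1 kb either side that lies in Hdac1 islands (red circles) and Hdac2 islands (blue squares), in percent of bases, by cluster with group 13 at the top and the group 11 genes shaded. The group 11 genes sit at 100% for Hdac1 and at 72.0, 64.7 and 91.5% for Hdac2, while Hoxd13, Hoxc12 and Hoxc13 above them have no Hdac2.

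The Hdac1 islands over Hoxa11 and Hoxc11 also hold the genes of miR-196, a microRNA family that in mouse embryos cleaves the Hoxb8 messenger RNA. They were looked at after the islands were seen, because both clusters carry 1. The mature sequences are from RefSeq, with the seed, bases 2 to 8, in capitals.
mmu-miR-196b-5p: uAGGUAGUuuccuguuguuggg
mmu-miR-196a-5p: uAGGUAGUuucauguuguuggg

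Both have the seed AGGUAGU. The first, at chr6:52230129-52230150 (minus strand), lies 11.955 kb from Hoxa11 inside the 9.2 kb Hdac2 island over Hoxa10, and the second, at chr15:102973365-102973386 (plus strand), lies 16.664 kb from Hoxc11 inside the 14.6 kb Hdac2 island over Hoxc10 and Hoxc9.

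Hdac1 islands that hold so many Hdac2 islands were rare outside the Hox clusters. A cutoff of 4 was taken from the number in Hoxd, so the islands over all 3 group 11 genes passed it by construction. Hdac1 islands with at least 4 Hdac2 islands wholly inside made up 5 of 30182 (0.0166%). These were the islands over the 3 group 11 genes, the Hoxb island with 11, which holds no group 11 gene, and a 29.6 kb island over Nr2f2 with 4. Next by number came islands over Spry1 (20.2 kb), an inhibitor of receptor tyrosine kinase signalling that limits the response to Gdnf in kidney, Zfhx3 (18.0 kb) and Irf2bpl (13.4 kb), with 3 each. A further 90 Hdac1 islands, none in a Hox cluster, held 2 each, and the widest of these lay over Gm52481 on chromosome Y (31.2 kb). Of the 22 Hdac1 islands of 20 kb or more that did not lie over a group 11 gene, 13 held no whole Hdac2 island. Hdac2 covered at least 93.6% of each of these 13, by Hdac2 islands that reached past the Hdac1 edge. The values of these 13 Hdac1 islands ran from 0 to 0.0210, so not all wide islands were strong ones. All 5 islands that passed the cutoff were among the 25 Hdac1 islands of 20 kb or more, while the list's median width was 2.0 kb. With islands joined up to 1 kb, those over Hoxa11, Hoxc11 and Hoxd11 held 3, 6 and 3 Hdac2 islands. With the upper 50% of each list they held 5, 6 and 3. The share over all Hdac1 islands was not recomputed under these settings.

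By the widest island of each antibody, Nr2f2 was the nearest gene outside the clusters to Hoxa11 and Hoxc11 and the second nearest to Hoxd11. Likeness here is the distance between 2 genes on the log2 scale of width over the 2 libraries. Nr2f2, with 29.6 kb for Hdac1 and 8.6 kb for Hdac2, was at a distance of 1.06 from Hoxa11, 1.45 from Hoxc11 and 0.86 from Hoxd11. Gm52481 was nearest to Hoxd11, at 0.46. Its Hdac1 island, on chromosome Y, had a value of 1.07e-27, against 0 for the one over Hoxd11, and value does not enter this distance. After Nr2f2 came Spry1 (1.33) and Zfhx3 (1.42) for Hoxa11, and Spry1 (1.78) and Gm52481 (1.80) for Hoxc11. Cirbp (1.06), a cold-inducible RNA-binding protein gene, was the third for Hoxd11.

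**Figure D4:**
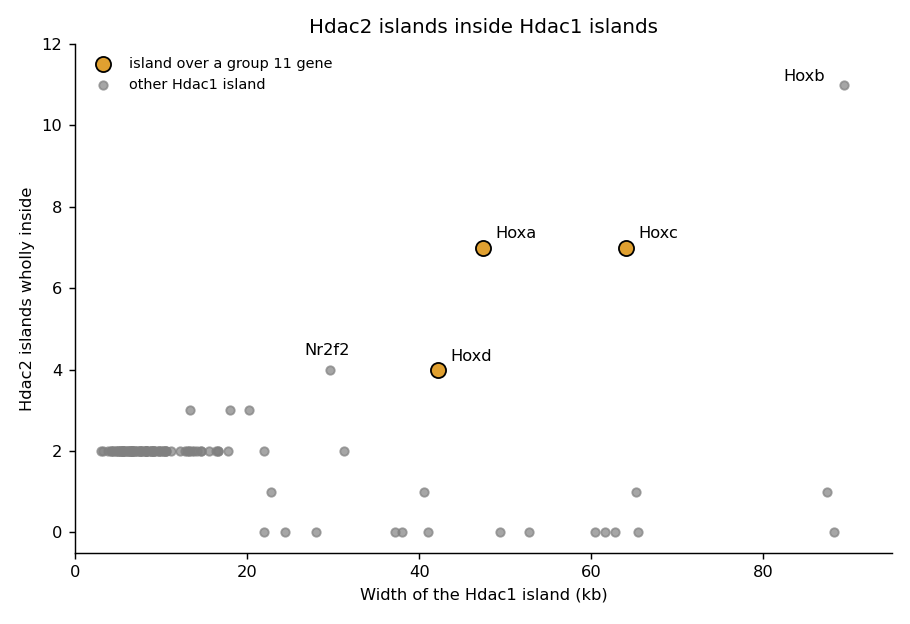
Number of Hdac2 islands wholly inside an Hdac1 island (y axis) against the width of that Hdac1 island in kb (x axis), for Hdac1 islands of 20 kb or more or with 2 or more Hdac2 islands inside, with those over a group 11 gene in yellow and the others in grey. The yellow points are at 7, 7 and 4, below the Hoxb island at 11 and level with or above the Nr2f2 island at 4.

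The genes that group 11 proteins act with or on had islands of both antibodies, but none lay wholly inside an island with its 1 kb flanks. The group 11 genes had median covered shares of 100% for Hdac1 and 72.0% for Hdac2, against 21.2% and 13.2% over 10 such genes, all of which had both. Six2 was covered to 42.3% by Hdac1 and 34.4% by Hdac2, and Gdnf to 32.3% and 20.2%. Eya1 had 11.9% and 3.61%, and Pax2 had 19.2% and 7.90%. Among the other progenitor regulators, Sall1, a zinc finger gene, had 83.1% and 40.8%, and Osr1, an early marker of the kidney field, had 88.3% and 48.6%, with 100% of the gene itself in an Hdac1 island. Wt1, the Wilms tumour gene, had 23.0% and 18.5%, and Itga8, an integrin gene needed for Gdnf expression, had 6.18% and 2.63%. The Hox cofactor genes Meis1 and Meis2 had 19.4% and 12.2% for Hdac1 and 5.42% and 7.81% for Hdac2. These genes are mostly longer than Hox genes, which lowers the share that an island of given width covers.

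Islands do not measure expression, so the cell label could not be checked from them. All 6 progenitor markers looked at (Six2, Cited1, Eya1, Sall1, Wt1 and Pax2) had islands of both antibodies. So did the stromal genes Foxd1 and Meis1 and the ureteric bud genes Ret and Wnt11, against 37.4% of all protein-coding genes. The lists held 30182 Hdac1 islands over 69.0 Mb and 20307 Hdac2 islands over 65.5 Mb, and islands of 20 kb or more made up 0.0828% of the first and 0.256% of the second.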

How the data were processed

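Hdac1 and Hdac2 ChIP-seq libraries, 1 each, were analysed from the deposited island lists. Libraries were made from 500 pg of DNA with 12 or more cycles of amplification, per the labels' protocols. Reads were processed with BWA 0.7.5a, bedtools 2.17, FastQC, SICER and SAMtools 1.3.1 on build mm10, per the submitters' processing notes. Settings, background library, pooling and depth were not stated there. SICER joins enriched windows into broad regions, so edges are coarse and breaks depend on its gap setting. The deposited value of each island, either its p-value or its q-value, was used to rank islands within a list.

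Positions are 1-based. Gene spans were those of RefSeq on GRCm38.p6, for chromosomes 1 to 19, X and Y; the table gives no exons, and strands were taken from the promoter table. Covered shares are bases of the gene and 1 kb either side that lie in islands. The overlap steps were tested on simulated data. No test was made between libraries. The members and lists were chosen with earlier results of these data known. Named genes were the members, Hox genes of groups 9 to 13 in the Hoxa, Hoxc and Hoxd clusters, genes within 10 kb of a member, 10 partner genes (others are not reported here), the 5 Hdac1 islands outside the clusters with the most Hdac2 islands inside (ties by width), and the 3 genes nearest to each member by island width (log2 of width plus 200 bp). Other Hox genes are named where an island or break lies at them. Alternatives were other windows, stricter or equal lists, joined islands and other overlap rules. Computations used Python 3.11.15 with pandas 2.3.3, numpy 2.4.6, matplotlib 3.10.9 and scipy 1.17.1.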

Additional observations from a re-analysis of the deposited data

How the results depend on the processing

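Under every window, list and overlap rule tried, each member kept an island of both antibodies, except that 1 kb either side of a start could be looked at for Hoxa11 and Hoxd11 alone, which had both. For Hoxc11 with the upper 50% of Hdac2 islands this rested on 101 bp of its flank. With 5 kb beyond each end, Hdac1 covered 94.1% of the Hoxa11 span, 79.7% of the Hoxc11 span and 98.6% of the Hoxd11 span. The full Hdac1 cover seen with 1 kb was thus lost at each of them. In that wider window 68.9% of all genes had Hdac1 and 43.6% Hdac2. On the gene alone, Hdac2 covered 86.2% of Hoxc11, and the shares of all genes were 65.5% and 38.4%. With the upper 50% of each list, or of Hdac2 alone (an alternative chosen after seeing the data), Hdac2 covered 31.7% of the Hoxa11 span, 2.42% of the Hoxc11 span and 70.9% of the Hdac1 island over Hoxa11. All genes then had Hdac1 at 57.2% with both lists reduced, and Hdac2 at 21.4%. Lists of equal length gave Hdac1 at 62.1% of genes, and a need for 50% cover gave 4.67% and 2.33%. Joining islands up to 3 kb brought Hdac2 cover to 100% at Hoxa11, 93.4% at Hoxc11, 100% at Hoxd11 and a median of 96.7% at other Hox genes. It left 1, 4 and 2 Hdac2 islands in the Hdac1 islands over Hoxa11, Hoxc11 and Hoxd11, with 80.5%, 67.1% and 74.4% covered, as the Hdac1 islands grew too. Joining up to 1 kb gave 100% at Hoxd11, 3 Hdac2 islands in the Hoxa island and cover of 92.8% there. It gave 76.2% in the Hoxd island, where the Hdac1 island grew as well. Counts of group 11 genes by Hdac2 cover or pieces were recomputed too, a choice made after seeing the data. With the upper 50% of the list, 1 of 3 kept 50% cover and 1 of 3 kept 2 or more Hdac2 islands, and with islands joined up to 3 kb 0 of 3 had 2 or more. Ranked by width in place of value, the Hdac1 islands were at percentiles 0.0398 (Hoxa11), 0.0199 (Hoxc11) and 0.0431 (Hoxd11), and the Hdac2 islands at 13.1 and 15.2 (Hoxa11), 54.1 and 17.4 (Hoxc11) and 5.81 and 0.389 (Hoxd11). No paired analysis was possible because each antibody had 1 library. The depth is unknown, so the lack of an Hdac2 island does not show that the protein was absent.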

Other observations

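Other RNA genes lay in the same islands. LOC115490410, a long non-coding RNA gene annotated wholly within the span of Hoxa11, lay mostly in the stretch without Hdac2: 100% of it was in the Hdac1 island and 12.98% in Hdac2 islands. Gm52902, a long non-coding RNA gene 9.454 kb from Hoxa11 that spans the miR-196b hairpin, was covered to 100% by Hdac1 and 80.6% by Hdac2. In the Hdac1 island over Hoxc11, the microRNA gene Mir615 lay 58.225 kb from Hoxc11 inside the last of the 7 Hdac2 islands, of 10.4 kb over Hoxc6 and Hoxc5.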
